A study of Mus musculus with 4 samples.

Results

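Glutamate uptake and glutamine synthesis were followed here through 7 genes: the membrane carriers Slc1a1, Slc1a2, Slc1a3, Slc1a4 and Slc1a5 and the enzymes Glul and Glud1. A probe set, a group of short array probes for 1 transcript, was included when the platform annotation named exactly 1 gene and that gene was 1 of these. This gave 23 probe sets of 45037, for 7 genes of 18193. The series asks which genes hold back astrocyte formation by mid-gestation precursors. The cells were neuroepithelial cells, the dividing precursors of the forebrain's neurons and glia, taken from the telencephalon of ICR mouse embryos, with no genetic change named. In 1 group of 2 arrays they came from embryonic day 14.5 (E14.5) and were cultured for 4 days. In the other group of 2 arrays they came from embryonic day 11.5 (E11.5) and were cultured for 1 day. Both groups grew in N2-supplemented medium with 10 ng/ml basic FGF, which keeps such precursors dividing, on polyornithine and fibronectin. Embryonic age and days in culture differed together, so their parts cannot be told apart. Nothing in the labels says that replicates came from separate cultures or animals, so the p-values cover array-to-array spread alone, and that spread may be a technical one.

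Glutamate is the main excitatory transmitter of the brain, and cells of the astrocyte lineage clear it from outside the cell with sodium-driven carriers of the Slc1 family. Inside the cell, glutamine synthetase joins ammonia to glutamate to make glutamine, which is exported and reused by neurons. Glutamate dehydrogenase links glutamate to 2-oxoglutarate of the citric acid cycle. In the embryonic telencephalon, Slc1a3 is known as a marker of radial glia, and Slc1a2 and glutamine synthetase as markers of maturing astrocytes.

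The DNA upstream of 3 members that differed between the groups is shown so that these genes can be compared at their starts: the glutamate carriers Slc1a3 and Slc1a1 and the synthetase gene Glul. Each line gives the 250 bases before the annotated start, 5′ to 3′ on the strand of the gene, from RefSeq in build GRCm38.p6. Capitals mark matches, on either strand, to TTCNNNGAA (a STAT site), to the motif CCAAT, to GGGCGG (which is known as the GC box) and to TATAAA (known as the TATA box). The full palindromic site of nuclear factor I was searched too.
Slc1a3, chr15:8710808-8711057, minus strand: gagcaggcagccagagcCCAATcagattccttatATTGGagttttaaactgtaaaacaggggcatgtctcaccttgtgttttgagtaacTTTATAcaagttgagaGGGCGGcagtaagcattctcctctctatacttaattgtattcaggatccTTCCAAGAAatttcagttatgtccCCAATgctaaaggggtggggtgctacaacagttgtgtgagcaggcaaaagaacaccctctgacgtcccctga
Slc1a1, chr19:28834885-28835134, plus strand: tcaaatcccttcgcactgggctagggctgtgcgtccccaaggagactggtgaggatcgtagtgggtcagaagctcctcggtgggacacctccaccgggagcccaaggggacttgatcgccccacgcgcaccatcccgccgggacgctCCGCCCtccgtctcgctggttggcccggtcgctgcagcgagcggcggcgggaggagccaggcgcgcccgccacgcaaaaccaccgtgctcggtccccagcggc
Glul, chr1:153899679-153899928, plus strand: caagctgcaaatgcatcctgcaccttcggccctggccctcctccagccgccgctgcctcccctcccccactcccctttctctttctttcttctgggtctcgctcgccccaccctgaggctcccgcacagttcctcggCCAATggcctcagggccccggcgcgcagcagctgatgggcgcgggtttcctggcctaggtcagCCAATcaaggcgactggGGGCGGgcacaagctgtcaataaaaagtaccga
RefSeq's table held such a stretch for 6 of the 7 members, Slc1a5 being the other, and no 2 matches overlap in the stretches printed. The stretch of Slc1a3 was the 1 of 6 with TTCNNNGAA, which 7.02% of all 32851 stretches of this length held. It was also the 1 with TATAAA, against 12.4% of all stretches. CCAAT was found in 3 of the 6 (Slc1a3, Slc1a4 and Glul), against 33.8% of all, and GGGCGG in 5, all but Slc1a2, against 32.7% of all. None held the full nuclear factor I site, which 0.0365% of all stretches did. The base composition differed, with 44.8% G and C in the stretch of Slc1a3, 70.4% in that of Slc1a1 and 64.8% in that of Glul. For Slc1a2 the table's start lies 48199 bases inside the annotated gene, so its stretch belongs to an internal start. The motifs were chosen with the sequences in view, and a match is a string of letters, not a site shown to be bound.

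All values below are scaled signals, that is deposited intensities multiplied by 1 factor per array so that the 4 arrays shared a trimmed mean of 174. As deposited, the trimmed means were 154 and 103 on the E14.5 arrays and 187 and 252 on the E11.5 arrays. Markers of neural progenitors were present on every array, as the label requires: the summed signal of Fabp7, Nes, Vim, Pax6, Sox2, Hes5 and Tnc was 27818 and 29833 on the E14.5 arrays and 19994 and 18303 on the E11.5 arrays. Of these 7, 4 were called higher (1 without scaling, 2 without a variance trend) and Pax6 lower, while Nes and Vim did not pass. Fabp7 and Vim made up most of the sum on every array. The ratio of 3′ to 5′ control probe sets, a sign of RNA quality, was 0.825 and 0.879 for Gapdh on the E14.5 arrays and 0.806 and 0.808 on the E11.5 arrays. Differences are E14.5 minus E11.5 in log2(scaled signal + 12.8), where the added constant, the pseudocount, shrinks the differences of dim probe sets. They are given ± SE with n = 2 arrays per group. A probe set was called when its p-value from limma, adjusted over all 27022 tested probe sets, was below 0.05.

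Of the 7 genes, 6 rose at E14.5 and 1, Slc1a5, fell, taking each gene's brightest tested probe set. Without scaling of the arrays the directions of all 7 were the same, but Slc1a2 (0.54), Glul (0.95) and Slc1a4 (0.11) were no longer called. In that setting the median difference of all genes was -0.68, and those 3 genes lay 1.22, 1.63 and 0.79 above it. Measuring from that median is itself a form of scaling, so it gives no separate check of the 3 rises. Of the 23 probe sets, 18 passed the filter on mean signal (27.3) and 5 did not. Of the 18, 16 were called higher (9 without scaling), 1 lower, and 1 was not called. Over all tested probe sets, 23.7% were called, 11.1% as higher and 12.6% as lower. By brightest probe set, 27.8% of 12952 genes were called, 14.3% as higher and 13.6% as lower. The median difference of the 7 genes was 1.72, beside 0.03 for all tested genes. The groups did not overlap at 17 of the 18 tested probe sets, 16 being higher and 1 lower. Over all tested probe sets 61.9% did not overlap, 30.1% being higher and 31.9% lower. The probe sets Slc1a1 1460386_a_at and Slc1a2 1451627_a_at passed the filter through the E14.5 arrays alone, so their difference is partly set by that choice.

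**Figure D1:**
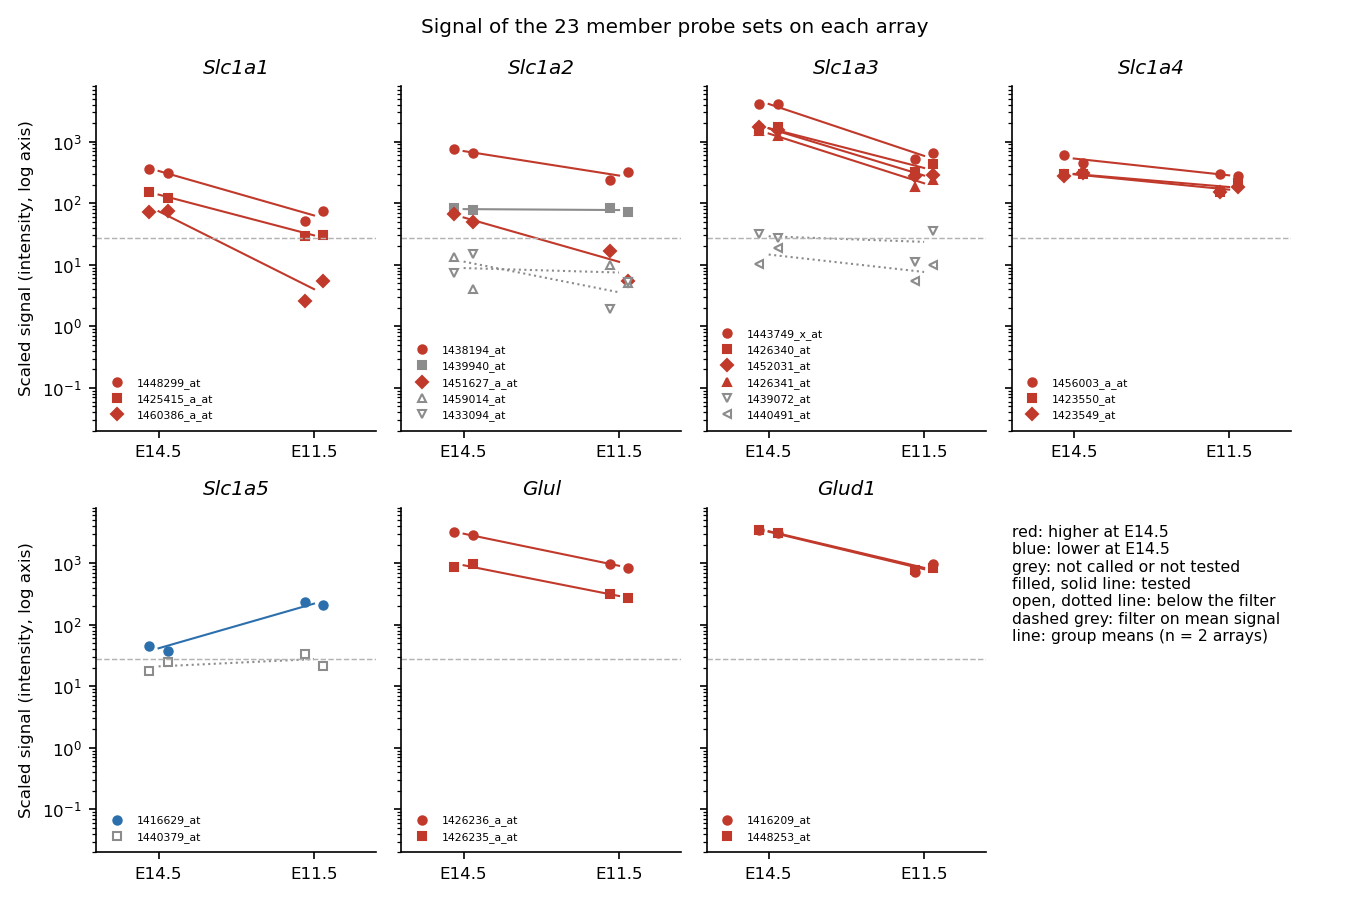
Scaled signal (intensity, log axis) of each of the 23 probe sets, with a panel per gene, 2 E14.5 arrays on the left and 2 E11.5 arrays on the right of each panel, and lines joining the group means. Lines of tested probe sets slope down toward E11.5 for Slc1a1, Slc1a3, Slc1a4, Glul and Glud1 and up for Slc1a5, while Slc1a2 has 1 nearly level line (1439940_at) among its tested probe sets.

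Slc1a3, also known as GLAST or EAAT1, is the uptake carrier of radial glia and astrocytes, and it rose at all 4 of its tested probe sets. Its brightest probe set, 1443749_x_at, had signals of 4064 and 4114 on the E14.5 arrays, against 530 and 644 on the E11.5 arrays. Both E14.5 arrays were far above both E11.5 arrays, and the ratio of means was 6.97. The difference was 2.78 ± 0.13 (limma adjusted p = 1.1e-06), and 0.718% of all tested genes had a larger one. In Affymetrix naming, the ending _x_at marks a set with probes that can also match other sequences. The other 3 tested probe sets carry no such mark. By the brightest of those, 1426340_at, Slc1a3 rose by 2.13, below the 2.20 of Slc1a1. At 1452031_at (2.49) and 1426341_at (2.62) it rose by more than 2.20. Its place as the largest difference thus depends on which probe set stands for the gene. Probe set 1452031_at had 1742 and 1541 on the E14.5 arrays and 278 and 285 on the E11.5 arrays. Probe set 1426340_at had 1597 and 1714 on the E14.5 arrays and 318 and 428 on the E11.5 arrays, and 1426341_at had 1477 and 1230 on the E14.5 arrays and 184 and 237 on the E11.5 arrays. All 3 rose without overlap, by 2.49 ± 0.14, 2.13 ± 0.16 and 2.62 ± 0.17 (highest limma adjusted p of the 3, 1.47e-05). Averaged over its tested probe sets, Slc1a3 rose by 2.50. The remaining 2 Slc1a3 probe sets were dim: 1439072_at had 31.1 and 26.8 on the E14.5 arrays and 11.2 and 35.8 on the E11.5 arrays, and 1440491_at stayed at or below 19.0 on all 4. Neither was tested.

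Slc1a1, also known as EAAC1 or EAAT3, is the glutamate and cysteine carrier typical of neurons in the adult brain. Its brightest probe set, 1448299_at, had 361 and 306 on the E14.5 arrays, against 50.9 and 75.5 on the E11.5 arrays. It rose by 2.20 ± 0.22 (limma adjusted p = 8.25e-05), a ratio of means of 5.28. The 2 other probe sets, both of the kind (_a_at) that reads several transcripts of a gene, also rose. Probe set 1425415_a_at had 152 and 123 on the E14.5 arrays and 29.8 and 30.2 on the E11.5 arrays (1.81 ± 0.25). Probe set 1460386_a_at had 72.8 and 75.1 on the E14.5 arrays and 2.58 and 5.46 on the E11.5 arrays (2.37 ± 0.36). Because its E11.5 signals lie under the pseudocount, that last difference ran from 1.33 to 3.80 with a larger and a smaller one. The rise of Slc1a1 stood beside a fall of most neuronal markers and a rise of astrocyte, oligodendrocyte precursor and microglia markers, given below. The summed signal of Tubb3, Stmn2, Dcx, Map2, Snap25 and Rbfox3 was 4036 and 3715 on the E14.5 arrays and 10070 and 10539 on the E11.5 arrays. Of these 6, 5 were called lower. The exception, Map2, had 2825 and 2924 on the E14.5 arrays and 2352 and 2581 on the E11.5 arrays, most of the E14.5 sums.

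Slc1a2, also known as GLT-1 or EAAT2, carries most glutamate uptake in the adult forebrain. Its brightest probe set, 1438194_at, had 756 and 648 on the E14.5 arrays, against 239 and 323 on the E11.5 arrays. It rose by 1.29 ± 0.18 (limma adjusted p = 0.00057), a ratio of means of 2.50. The dimmer 1451627_a_at had 67.7 and 49.5 on the E14.5 arrays and 16.8 and 5.47 on the E11.5 arrays and rose by 1.61 ± 0.39 (limma adjusted p = 0.0137). That second difference ran from 0.92 to 2.38 with a larger and a smaller pseudocount. The probe sets of this gene did not all behave alike. At 1439940_at the signals were 83.1 and 77.1 on the E14.5 arrays and 83.6 and 71.1 on the E11.5 arrays, overlapping, with a difference of 0.05 ± 0.24 and a 95% interval of -0.48 to 0.58. That interval does not reach the 0.90 at the lower end of the interval of 1438194_at. The last 2, 1459014_at and 1433094_at, gave 4.08 to 15.2 on the E14.5 arrays and 1.90 to 9.89 on the E11.5 arrays and were not tested.

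The carriers of neutral amino acids moved in opposite directions. Slc1a4, also known as ASCT1, exchanges alanine, serine and cysteine and is related in sequence to the glutamate carriers. Its brightest probe set, 1456003_a_at, had 614 and 449 on the E14.5 arrays, against 292 and 274 on the E11.5 arrays. It rose by 0.86 ± 0.18 (limma adjusted p = 0.00594), and the adjusted p was 0.0514 when the variance was not modelled on signal. Probe set 1423549_at had 278 and 311 on the E14.5 arrays and 151 and 181 on the E11.5 arrays (0.78 ± 0.18). Probe set 1423550_at had 300.4 and 297 on the E14.5 arrays and 150.1 and 216 on the E11.5 arrays (0.69 ± 0.20). Each of the 3 probe sets was higher on both E14.5 arrays than on both E11.5 arrays. The call of 1423550_at was lost without E14.5 replicate 1 (0.68), without E14.5 replicate 2 (0.70) and without E11.5 replicate 1 (0.45). Slc1a4 had the smallest rise of the 6 genes.

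Slc1a5, also known as ASCT2, is the neutral amino acid exchanger through which many dividing cells take up glutamine. Its probe set 1416629_at had 44.6 and 38.1 on the E14.5 arrays, against 233 and 207 on the E11.5 arrays. The signal on both E14.5 arrays was thus well below both E11.5 arrays, at a ratio of means of 0.188. The difference was -2.10 ± 0.22 (limma adjusted p = 0.000107), which placed it 173rd from the lowest among 12952 genes. The second probe set, 1440379_at, had 17.7 and 24.3 on the E14.5 arrays and 33.6 and 21.6 on the E11.5 arrays. It overlapped between the groups and was below the filter, so the fall of Slc1a5 rests on 1 probe set.

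Both enzymes rose, and the 2 probe sets of each gave similar differences. Glul, which encodes glutamine synthetase, had 3163 and 2844 on the E14.5 arrays, against 965 and 845 on the E11.5 arrays, at 1426236_a_at. The ratio of means was 3.32 and the difference 1.72 ± 0.13 (limma adjusted p = 1.5e-05). Its probe set 1426235_a_at had 862 and 984 on the E14.5 arrays and 317 and 267 on the E11.5 arrays (1.62 ± 0.15). Glud1, which encodes the mitochondrial glutamate dehydrogenase, had 3493 and 3107 on the E14.5 arrays, against 721 and 957 on the E11.5 arrays, at 1416209_at. The ratio of means was 3.93 and the difference 1.97 ± 0.15 (limma adjusted p = 1.74e-05). Probe set 1448253_at of Glud1 had 3388 and 3074 on the E14.5 arrays and 771 and 821 on the E11.5 arrays (2.00 ± 0.13). No E14.5 signal of either gene overlapped an E11.5 signal of the same probe set.

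Ordered by the difference of the brightest probe set, the genes ran Slc1a3 (2.78, 95% interval 2.48 to 3.08), Slc1a1 (2.20, 1.71 to 2.69), Glud1 (1.97, 1.63 to 2.31), Glul (1.72, 1.43 to 2.01), Slc1a2 (1.29, 0.90 to 1.69), Slc1a4 (0.86, 0.47 to 1.26) and Slc1a5 (-2.10, -2.59 to -1.61). The intervals of neighbours overlapped at every step but the last, between Slc1a4 and Slc1a5. An overlap of intervals does not decide the order of neighbouring genes among the 6 rises, with 2 arrays per group. The interval of Slc1a4 lies below those of Slc1a3, Slc1a1, Glud1 and Glul. The differences between genes were not tested directly.

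**Figure D2:**
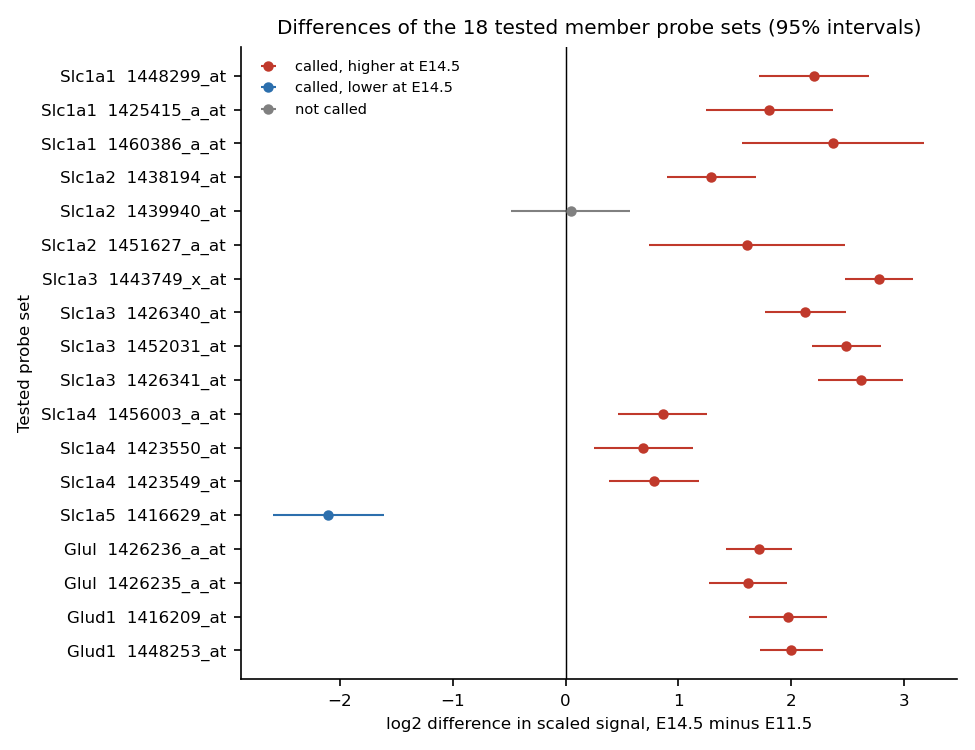
Difference in log2(scaled signal + pseudocount), E14.5 minus E11.5, for the 18 tested probe sets, with bars for the 95% interval from limma (n = 2 arrays per group). The 16 probe sets in red lie right of 0, Slc1a5 lies left at -2.10, and 1439940_at of Slc1a2 spans 0.

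The genes around this pathway, listed by role, did not move in 1 direction. Of 48 listed genes 44 had a named probe set and 38 were tested. Of these, 6 were higher, 14 lower and 18 not called, with a median difference of -0.26. Over all tested genes 14.3% were higher and 13.6% lower. Among carriers of glutamine, Slc38a3, the sodium-coupled carrier through which astrocytes release glutamine, had 771 and 728 on the E14.5 arrays, against 69.8 and 103 on the E11.5 arrays. It rose by 2.96 ± 0.19 (limma adjusted p = 6.05e-06). Slc38a7, a lysosomal glutamine carrier, rose by 0.55 ± 0.17 (limma adjusted p = 0.0434), but lost its call without any 1 of the 4 arrays (0.47 to 0.64) and turned in sign without scaling (-0.18). The glutamine carriers Slc38a2 (-0.34 ± 0.12) and Slc38a1 (-0.29 ± 0.13) did not pass the test, though Slc38a2 did, as lower, under quantile normalization (-0.44). In all, 2 of the 6 tested glutamine and cystine carriers rose and none fell.

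Among mitochondrial carriers, Slc25a18 and Slc25a22, both of which bring glutamate into the mitochondrion, went opposite ways. Slc25a18 had 792 and 655 on the E14.5 arrays and 123 and 104 on the E11.5 arrays (2.54 ± 0.17, limma adjusted p = 7.7e-06). Slc25a22 had 200.3 and 153 on the E14.5 arrays and 353 and 361 on the E11.5 arrays (-0.98 ± 0.18, limma adjusted p = 0.00329). The aspartate and glutamate exchanger Slc25a13 fell by 1.45 on the log2 scale (limma adjusted p = 0.000981), and its relative Slc25a12 did not pass (0.28 ± 0.13). Among enzymes of transamination, Gpt2, the mitochondrial alanine transaminase, had 966 and 1303 on the E14.5 arrays and 236 and 211 on the E11.5 arrays (2.27 ± 0.17, limma adjusted p = 1.5e-05). Oat, ornithine aminotransferase, rose by 1.20 ± 0.13, a call lost without scaling (0.43). The cytosolic branched-chain transaminase Bcat1 fell by 0.92 on the log2 scale. The cytosolic aspartate transaminase Got1 fell by 0.44, but lost its call without any 1 array (-0.46 to -0.41). Got2 (0.29 ± 0.12) and Aldh18a1 (-0.24 ± 0.14) did not pass. Of the 9 tested genes of this group, 2 rose, 2 fell and 5 did not pass.

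Of 9 tested glutamine users, 5 were lower and none higher, beside 13.6% lower and 14.3% higher of all tested genes. Ctps, which makes CTP, had 767 and 698 on the E14.5 arrays, against 1293 and 1269 on the E11.5 arrays (-0.80 ± 0.13, limma adjusted p = 0.00157). The purine enzymes Ppat (-0.63 ± 0.18) and Gmps (-0.55 ± 0.12) and the pyrimidine enzyme Cad (-0.57 ± 0.17) also fell. Without the variance trend Ppat, Gmps and Cad lost their calls (limma adjusted p = 0.067, 0.0818 and 0.129), while Ctps kept its call (0.0342). Cad also lost its call under quantile normalization (-0.52) and with no filter. The call of Ppat was lost without E14.5 replicate 2 (-0.57) or E11.5 replicate 1 (-0.56), and that of Cad without the same arrays (-0.36 and -0.53). Asns (-0.37 ± 0.14), which makes asparagine, and Gfpt1 (-0.17 ± 0.14), of the hexosamine pathway, did not pass.

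Among genes of glutamate release, Slc17a6 was the 1 tested. Slc17a6, the vesicular glutamate carrier VGLUT2, had 14.3 and 20.2 on the E14.5 arrays, against 317 and 384 on the E11.5 arrays (-3.59 ± 0.24, limma adjusted p = 6.07e-06, and -4.23 to -2.72 with a smaller and a larger pseudocount). It passed the filter through the E11.5 arrays alone, so its fall is partly set by that choice. Both enzymes that turn glutamate into GABA fell. Gad1 had 226 and 110.2 on the E14.5 arrays and 604 and 559 on the E11.5 arrays (-1.79 ± 0.26). Gad2 had 67.6 and 42.4 on the E14.5 arrays and 244 and 353 on the E11.5 arrays (-2.20 ± 0.26, limma adjusted p = 0.000209). None of the 3 tested genes of glutathione synthesis passed, with Gclc at -0.47 ± 0.17 and Gclm at 0.36 ± 0.18; Gclc passed, as lower, without E11.5 replicate 1 (-0.63). Among genes known to bind or regulate glutamate carriers, Slc9a3r1, a scaffold also named NHERF1, rose by 1.28 ± 0.14 (limma adjusted p = 0.00017), a call lost without scaling (0.51). The membrane linker Ezr (-0.89 ± 0.16) and the adaptor Ajuba (-1.28 ± 0.19) fell, and Mtdh, reported to repress EAAT2 in human cells, did not pass (-0.01 ± 0.15). The other Slc1 glutamate carriers, Slc1a6 and Slc1a7, had signals of 6.74 to 21.8 on the E14.5 arrays and 3.45 to 17.7 on the E11.5 arrays and were below the filter.

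**Figure D3:**
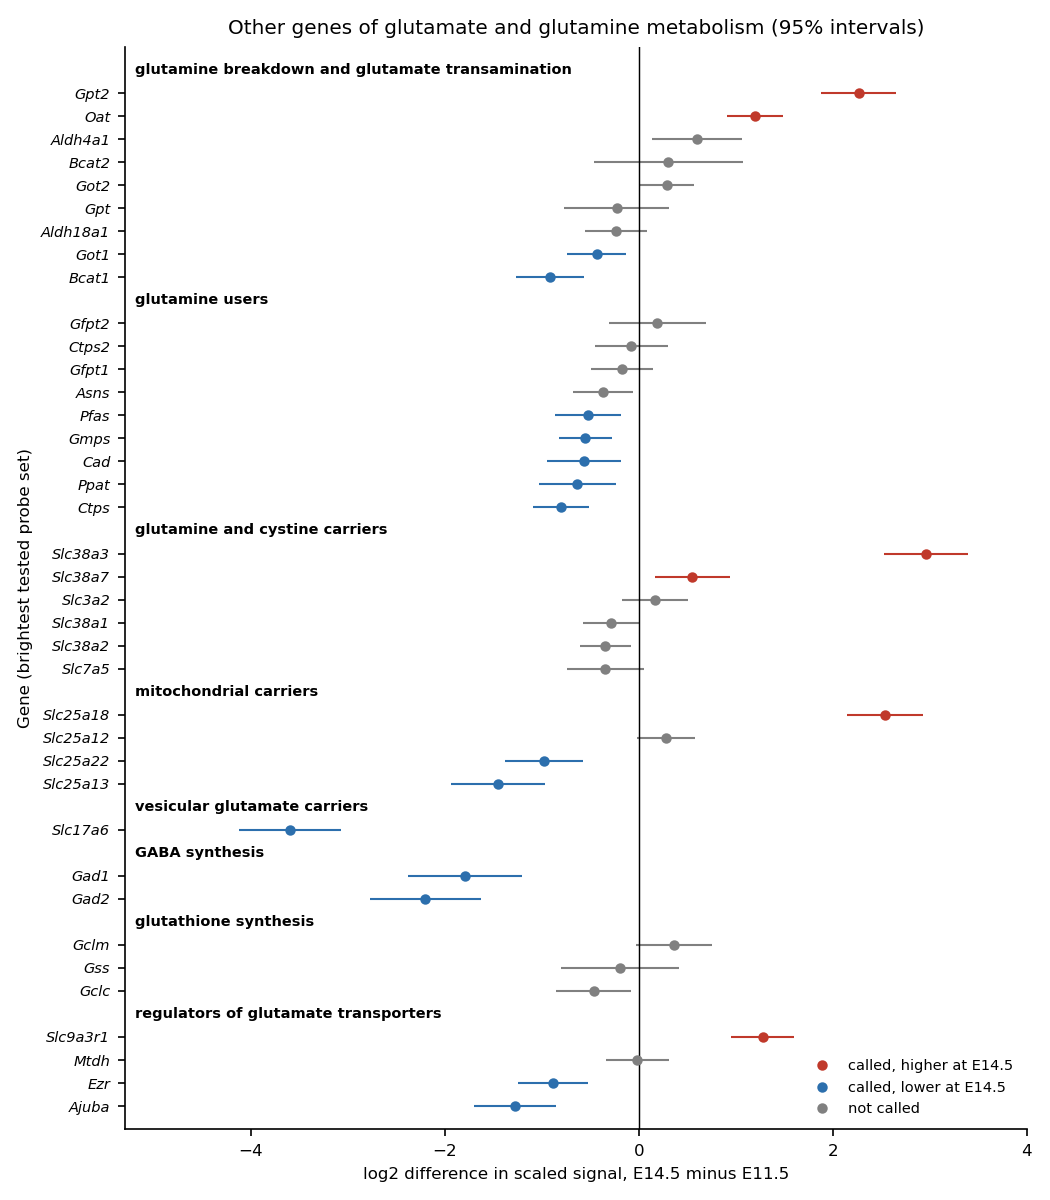
Difference in log2(scaled signal + pseudocount), E14.5 minus E11.5, for the 38 tested genes around the pathway, grouped by role, with 95% intervals from limma (n = 2 arrays per group). Slc38a3 (2.96), Slc25a18 (2.54) and Gpt2 (2.27) lie farthest right, and Slc17a6 (-3.59), Gad2 (-2.20) and Gad1 (-1.79) farthest left.

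Markers of several cell types differed between the groups together with the members. In such bulk samples, fewer cells of a type and less RNA per cell cannot be told apart. Astrocyte markers other than the members were called higher for 8 of 9 genes, with Apoe at 4.37 ± 0.23; Gja1 did not pass. One of the 9 was called lower without E14.5 replicate 1 or E11.5 replicate 2, and without scaling of the arrays 5 were called higher and 1 lower. Their summed signal was 17939 and 12803 on the E14.5 arrays and 5034 and 5323 on the E11.5 arrays. All 6 markers of oligodendrocyte precursors were higher, with sums of 16720.0 and 19049 on the E14.5 arrays and 860 and 622 on the E11.5 arrays. Of the 8 microglia and macrophage markers 5 were called higher, none lower, 1 was not called, and Aif1 and Itgam were below the filter. The sums of these 8 were 1297 and 1360 on the E14.5 arrays and 179.8 and 206 on the E11.5 arrays, and C1qa had 234 and 224 on the E14.5 arrays and 4.57 and 7.76 on the E11.5 arrays. None of these markers was listed at 0, but C1qa, C1qc and Itgam lay under the pseudocount (12.8) on both E11.5 arrays. Endothelial markers summed to 64.2 and 98.3 on the E14.5 arrays and 188 and 131 on the E11.5 arrays, with 4 of 5 below the filter. Meningeal and mesenchymal markers had 3 of 5 called lower, with sums of 588 and 526 on the E14.5 arrays and 1091 and 1128 on the E11.5 arrays. Erythroid markers had 2 of 4 called lower and 2 below the filter, with sums of 34.3 and 63.6 on the E14.5 arrays and 830.5 and 382 on the E11.5 arrays. Gfap, Aqp4, S100b, Cspg4, Gpr17, C1qa, C1qb and C1qc passed the filter through the E14.5 arrays alone. Hbb-y and Hba-x passed it through the E11.5 arrays alone. The calls of these genes are partly set by that choice. The part of any of these cell types in the differences of the 7 members was not tested.

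**Figure D4:**
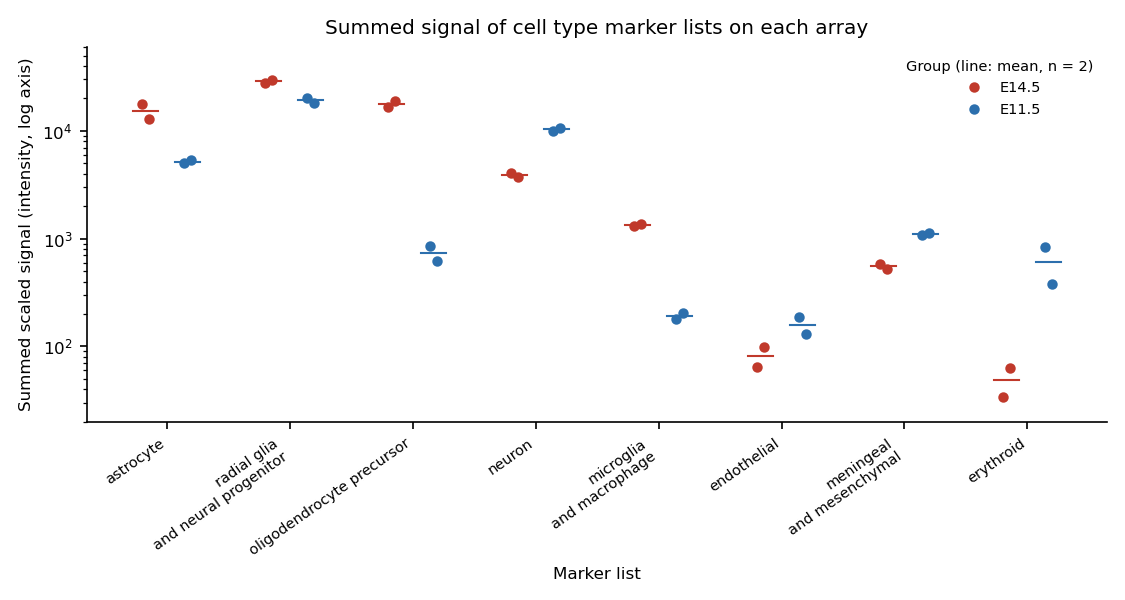
Summed scaled signal (intensity, log axis) of each list of cell type markers on the 2 E14.5 arrays (left of each pair) and the 2 E11.5 arrays (right), with a line at each group mean. The sums for astrocytes, progenitors (4 of 7 genes called higher, 1 lower), oligodendrocyte precursors and microglia are higher on the E14.5 arrays, and those for neurons, endothelial, mesenchymal and erythroid cells are lower.

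For the 3 members with the largest differences in either direction, the genes with the most similar pattern over the 4 arrays were found. Likeness was measured as the root mean squared distance between log2 profiles, each centred on its own mean. Closest to Slc1a3 were Arap2 (0.0181), Nfix (0.0608) and Fbxo44 (0.0979), which differed by 2.76, 2.73 and 2.93. Closest to Slc1a1 were Lyz2 (0.0585), Lcp1 (0.0619) and A2m (0.0841), which differed by 2.29, 2.30 and 2.14. Closest to Slc1a5 were Mbnl3 (0.0488), Shb (0.057) and Pbx3 (0.0639), which differed by -2.08, -2.06 and -2.15. With 4 arrays in 2 groups, any gene with a difference of the same size and little spread gets a small distance.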

How the data were processed

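Total RNA (5 µg) was copied with an oligo-dT primer, labelled as biotin cRNA and hybridised, per the labels' protocols. The deposited table holds a linear intensity for each probe set on each array, made by the authors with GCOS per the submitters' processing notes. Which version and settings were used is not given in the sources used here. Of 45101 probe sets 64 controls were set aside. The platform annotation named 1 gene for 34945, several for 932 and none for 9160. Groups came from the sample titles.

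Arrays were scaled to a common 2% trimmed mean, by 1.13 and 1.68 for the E14.5 arrays and 0.932 and 0.691 for the E11.5 arrays. Probe sets at or above the 40th percentile of mean signal were tested, with the 25th percentile of all values as pseudocount. The test was limma 3.58.1 in R 4.3.3 (lmFit, eBayes with a variance trend; 2 residual and 7.99 prior degrees of freedom), two-sided, with Benjamini-Hochberg adjustment at 0.05. The fit was tested on simulated data with independent normal noise, in which 200 of 27022 probe sets changed. Of changes of 1 and 2 on the log2 scale, 72% and 95% were recovered, and 11 of 178 calls were false. The share changed there was far lower than the 23.7% of probe sets called in the real data. The number of arrays limits the precision.

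The members, lists and naming rule were chosen with earlier results of these data known. All members, up to 4 called and 2 uncalled genes per pathway group, the 3 most alike genes and up to 2 markers per cell type are named; other genes were named after their values were seen. One probe set naming Slc1a2 beside another gene was left out. Other scalings, pseudocounts, filters, a replicate block, no variance trend, probe set averages and leaving out each array were tried.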

Additional observations from a re-analysis of the deposited data

How the results depend on the processing

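The 7 members kept their direction in each of the 14 alternatives run for them, which included averages over probe sets and, for Slc1a3, another probe set. Changes of filter, variance trend or replicate block leave a difference as it is by construction. Those settings therefore could not show a change of direction. Nor could a changed pseudocount or leaving out 1 array, since the groups did not overlap at the probe set representing each member. With values as deposited, the E14.5 arrays being dimmer, 400 probe sets were called higher and 4929 lower (7.5% of calls higher, against 47% with scaling), 9 of 18 member probe sets and 3 pathway genes were higher, and Slc1a2 (0.54), Glul (0.95) and Slc1a4 (0.11) lost their calls. In that setting Slc1a2 1439940_at (-0.62), Slc1a4 1423550_at (-0.0495), Gclm (-0.38), Got2 (-0.48), Slc25a12 (-0.49) and Slc38a7 (-0.18) changed sign; this setting by its construction lowers E14.5 signals relative to E11.5 ones. Without the variance trend 1919 probe sets were higher and 2097 lower, 9 pathway genes were lower, and Slc1a4 (0.86) had an adjusted p of 0.0514; the cause was not tested. Under quantile normalization Mtdh was 0.024. Leaving out 1 array each, the difference of Slc1a2 1439940_at ran from -0.0535 (without E11.5 replicate 2) to 0.15 and that of Mtdh from -0.12 to 0.0879, and 15 to 16 member probe sets were higher and 1 lower. The titles number the replicates but do not say whether same-numbered arrays were paired. Deviations of same-numbered arrays from their group means correlated at r = 0.004 over probe sets. That shows no shared replicate effect, but it cannot tell how the arrays were prepared. With a replicate block, 3312 probe sets were higher and 3861 lower, 16 member probe sets were higher and 1 lower, and 1 of 9 astrocyte markers was called lower (0 without the block). Probe sets with a signal near the filter are limited by background, which was not analysed here.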

Other observations

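A probe set that the annotation assigns to both Slc1a2 and the predicted gene Gm13872, 1433095_at, had 8.97 and 8.21 on the E14.5 arrays and 4.61 and 6.18 on the E11.5 arrays. It was below the filter and not tested.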
